A study of Homo sapiens with 12 samples.

Results

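The genes described here are 10 members of the heterogeneous nuclear ribonucleoprotein (hnRNP) family: HNRNPA1, HNRNPA2B1, HNRNPC, HNRNPD, HNRNPF, HNRNPH1, HNRNPK, HNRNPL, HNRNPM and HNRNPU. They were taken as a named list and are 10 of the 58735 genes in the count tables. RNA came from HEK293T cells, a human embryonic kidney line carrying the SV40 large T antigen, 24 h after transfection with a cationic lipid reagent. There were 4 groups of 3 libraries: 500 ng of a miR-211 plasmid, a control plasmid, 1 nM of a Dicer-substrate siRNA against the U1 small nuclear RNA, and a scrambled oligo. The labels of both oligo groups also carry WT, which they do not explain and which the plasmid groups lack. Cells of all groups were therefore transfected, and no untreated library was analysed here. Per the labels, plasmid uptake was checked by GFP fluorescence and left some cells untransfected, and the siRNA lowered U1 only in part. Separate cultures are not stated for the libraries of a group, so each p-value reflects library-to-library spread that may be technical.

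The hnRNP proteins coat nascent transcripts in the nucleus, and most of them bind short RNA motifs through RNA recognition or KH domains. They help decide which splice sites are used, often by opposing the U1 small nuclear ribonucleoprotein, which pairs with 5′ splice sites, or the serine/arginine-rich proteins that recruit it. Several also act in RNA export, stability, translation or microRNA maturation, and the genes are highly transcribed in most dividing cells. A gene count measures how much RNA of these genes was present. It does not measure how they were spliced, nor how much protein was made.

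Library totals ran from 4515728 to 9290686 counts. Read pairs outside annotated exons made up 44.5% of uniquely mapped pairs in U1 siRNA replicate 2 and 14.5% to 25.5% in the other 11 libraries. MIR211, the gene of the microRNA, had 236 to 271 CPM (counts scaled by the library total to a common size) in the miR-211 plasmid libraries and 0.134 to 1.30 CPM in the control plasmid libraries. The 15 annotated U1 genes together had 14.0 to 18.9 CPM in the U1 siRNA libraries (63 to 120 counts). They had 16.5 to 19.4 CPM in the scrambled oligo libraries (114 to 153 counts), so the groups overlapped. Pairs that fitted several places were not counted, so these counts measure neither the U1 level nor its lowering by the siRNA. Of 8 markers of HEK293-type cells, 6 averaged over 1 CPM. Summed markers of fibroblasts, blood and melanocytes stayed at or under 17.1, 9.08 and 6.20 CPM. The highest value of each was in U1 siRNA replicate 2, the library with 44.5% of pairs outside exons. The part of these markers in the results was not tested.

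Sequences of a microRNA and its possible sites show where the miR-211 plasmid could act on these genes directly. The mature hsa-miR-211-5p lies at chr15:31065095-31065116 on the minus strand of GRCh38.p14 (RefSeq), and its seed, bases 2 to 8, is in capitals. HNRNPK carries a microRNA of its own: the hairpin MIR7-1 overlaps HNRNPK exon sequence on the same strand, and its mature hsa-miR-7-5p lies at chr9:83969811-83969834 on the minus strand. All 110 bases of the hairpin lie in annotated HNRNPK exon when the exons of its 11 transcripts are pooled. That does not make the hairpin exon in each transcript. The counting keeps no pair there that also fits HNRNPK, so the 0 counts of MIR7-1 in all 12 libraries do not measure it. The other 3 sequences are stretches of 3′ UTR around a match to the miR-211 seed, from the longest annotated 3′ UTR of each gene in GENCODE 29, with the match in capitals.
hsa-miR-211-5p: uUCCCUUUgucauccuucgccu
hsa-miR-7-5p: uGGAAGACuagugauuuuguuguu
HNRNPA1 site: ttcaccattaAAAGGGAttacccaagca
HNRNPA2B1 site: ctttaaaataAAAGGGAAatgttttctg
HNRNPU site: ggaattcagagAAGGGAAtgtaccaaat

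The letters searched, on the mRNA strand only, were AAAGGGA (pairing with bases 2 to 8), AAGGGAA (bases 2 to 7 followed by A) and AAAGGGAA, the 8-base match that holds both of the others. HNRNPA1 had AAAGGGA at base 536 of a 3′ UTR of 2543 bases, HNRNPA2B1 had AAAGGGAA at base 2142 of 2537, and HNRNPU had AAGGGAA at base 2263 of 4153. The other 7 genes had none in the window searched. A match was thus present in 3 of 10 of these genes, against 25.5% of 19133 protein-coding genes with an annotated 3′ UTR. Among 3′ UTRs of 1000 to 5000 bases the counts were 3 of 7 and 36.5%. A match describes letters and is not evidence that the microRNA binds there.

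All 10 genes were detected in every library. Together they took 1.16 ± 0.0202% of counts with the miR-211 plasmid, 1.21 ± 0.0494% with the control plasmid, 1.13 ± 0.0173% with U1 siRNA and 1.13 ± 0.0456% with scrambled oligo (SD, n = 3 each). To compare genes with each other, CPM was divided by the length of each gene's annotated exons in kilobases. HNRNPA1 was highest on that scale, at 568 ± 30.0 CPM per kb over the 12 libraries (SD), and ranked 87 of the 49409 genes with any count. HNRNPA1 binds UAGGG-type motifs and is a classic repressor of nearby splice sites. HNRNPK, a KH-domain protein that binds C-rich RNA and DNA, followed at 383 ± 16.8 CPM per kb (rank 127), and HNRNPA2B1, a close relative of HNRNPA1, at 331 ± 17.4 CPM per kb (rank 147). HNRNPC, which binds runs of U and keeps cryptic exons out of transcripts, had 214 ± 13.9 CPM per kb. HNRNPF and HNRNPH1, related proteins that bind runs of G, had 172 ± 8.74 and 88.8 ± 4.78 CPM per kb.

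The remaining 4 genes were lower by that measure. HNRNPD, also called AUF1, binds AU-rich elements that control mRNA decay, and stood at 20.0 ± 1.69 CPM per kb. HNRNPU, also called SAF-A, binds RNA and chromatin and scaffolds nuclear structure, and stood at 19.8 ± 2.04 CPM per kb. Its pooled exons cover 22.5 kb of a gene of 23.9 kb, so this length holds nearly the whole gene. Undivided, HNRNPU had 446 CPM, against 559 CPM for HNRNPF, whose pooled exons cover 3.25 kb. HNRNPM, which binds GU-rich RNA, had 11.9 ± 1.74 CPM per kb (rank 3134). HNRNPL, which binds CA repeats, had 3.37 ± 0.351 CPM per kb and ranked 6415. By that measure the name abundant, often given to these genes, did not describe it in these libraries. GC content and exons shared with another gene, both given below, bear on this level.

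Neighbours in this order kept it in all 12 libraries except HNRNPD and HNRNPU, where HNRNPD was the higher in 7 of 12. The ranges over libraries overlapped for that pair and for HNRNPK and HNRNPA2B1. Dividing by the longest annotated transcript in place of all exons put HNRNPU (34.1 CPM per kb) above HNRNPD (30.4 CPM per kb) in all 12 libraries, so their order depends on which length is used. With that length HNRNPA1 and HNRNPK stood at 703 and 666 CPM per kb, and HNRNPA1 was the higher in 11 of 12 libraries.

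**Figure D1:**
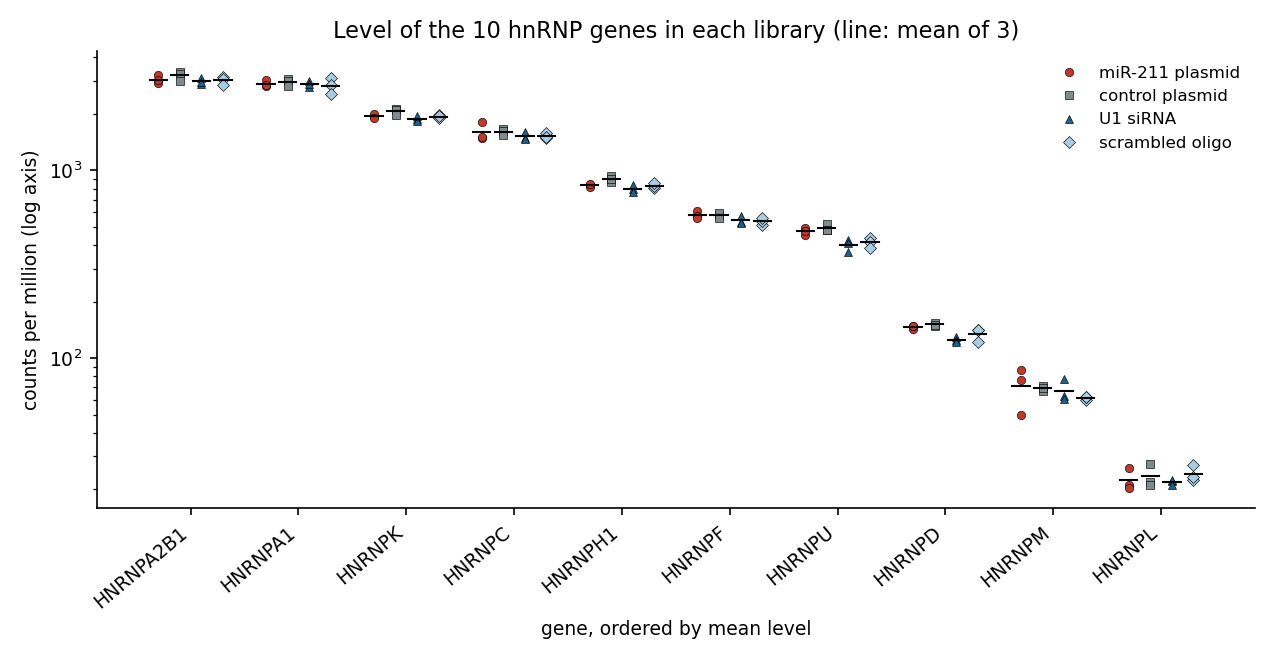
CPM (log axis) of the 10 hnRNP genes in each of the 12 libraries, with genes ordered by mean CPM, symbols for the 4 groups and a line at each group's mean of 3. Values are not divided by gene length here. The 12 values of HNRNPA2B1 lie between 2843 and 3364 CPM and those of HNRNPL between 20.4 and 27.3 CPM.

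Spread over the 12 libraries, which includes differences between the 4 groups, also differed between genes. The coefficient of variation was 4.38% for HNRNPK, 5.08% to 6.48% for HNRNPF, HNRNPA2B1, HNRNPA1, HNRNPH1 and HNRNPC, 8.48% for HNRNPD, 10.3% for HNRNPU, 10.4% for HNRNPL and 14.6% for HNRNPM. For HNRNPU the SD was 46.0 CPM over the 12 libraries and 21.1 to 29.4 CPM within the groups. HNRNPL and HNRNPM had the fewest counts, 1908 and 5549 over all libraries, against 251594 for HNRNPA2B1.

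Levels in these libraries moved with base composition. Over protein-coding genes of at least 1 CPM, the median level was 6.14 CPM per kb in the decile with the least GC (30.2% to 38.2%) and 0.785 CPM per kb in the decile with the most (59.7% to 73.4%). HNRNPM, at 54.9% GC, and HNRNPL, at 49.8%, were the most GC-rich of the 10 genes and the lowest in level, while HNRNPF, at 48.0%, was high. The other 7 genes had 36.1% to 43.0% GC. Among coding genes of like GC content, HNRNPK, HNRNPA2B1, HNRNPA1, HNRNPC, HNRNPH1 and HNRNPF stood above 96.4% to 99.6% of genes, HNRNPD, HNRNPU and HNRNPM above 76.6% to 79.2%, and HNRNPL above 56.0%. These shares rest on the level per kb of pooled exon, a length of 22.5 kb for HNRNPU. Whether GC content or the cells set these levels was not tested.

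**Figure D2:**
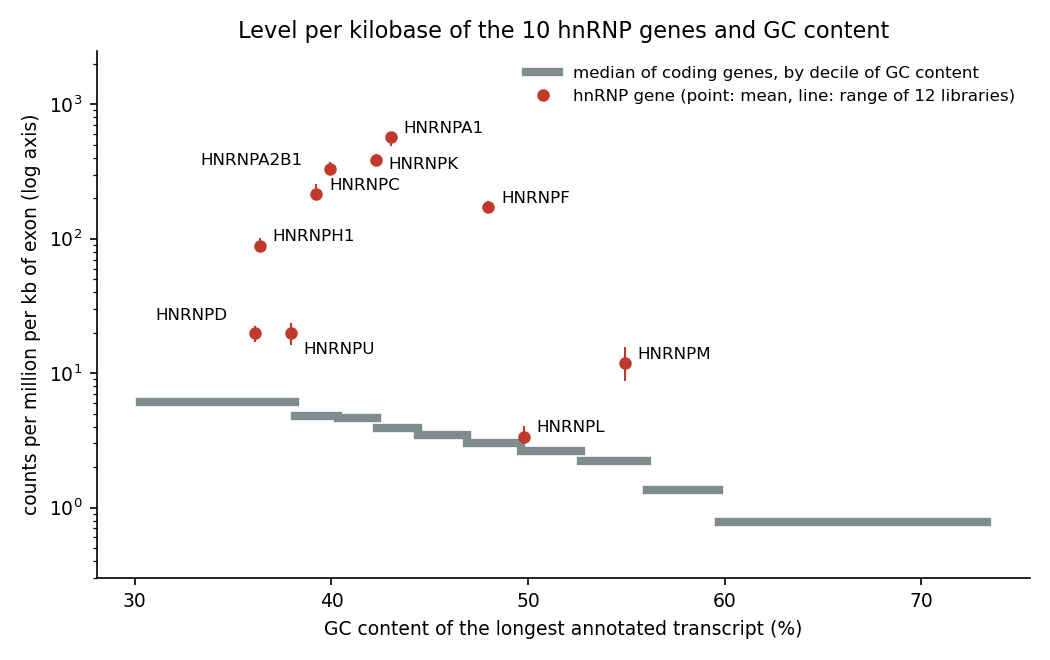
Level of the 10 hnRNP genes per kilobase of annotated exon (log axis) against the GC content of the longest annotated transcript, with the mean and range over 12 libraries. Grey bars give the median of protein-coding genes of at least 1 CPM in each decile of GC content, which runs from 6.14 CPM per kb at low GC to 0.785 at high GC. HNRNPL lies closest to the bars.

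For 3 of the genes, the level differed between the unstranded and the strand columns. The column used here ignores strand, and drops pairs that lie over more than 1 gene. The strand columns keep them where the genes lie on opposite strands. For HNRNPM (chr19:8444767-8489114, plus strand) their sum was 9156 counts, against 5549 without strand, an excess of 65.0% that ran from 50.2% to 75.1% between libraries. The exons of HNRNPM share 345 bases, at its start, with AC136469.2, annotated on the opposite strand, which had 25 counts without strand and 1885 and 1747 in the strand columns. The excess was 16.7% for HNRNPU (chr1:244840638-244864560, minus strand), whose exons share 3502 bases with COX20, and 11.4% for HNRNPK (chr9:83968083-83980616, minus strand), whose exons share 309 bases with the antisense gene AL354733.3. It was at most 0.261% for the other 7. This measure cannot see overlaps on the same strand, and HNRNPL shares 561 exon bases, 8.22% of its exons, with AC008982.1 on its own strand. Coordinates are those of GENCODE 29 on GRCh38. The unstranded counts of HNRNPM, HNRNPU and HNRNPK thus leave out pairs over the shared exons.

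**Figure D3:**
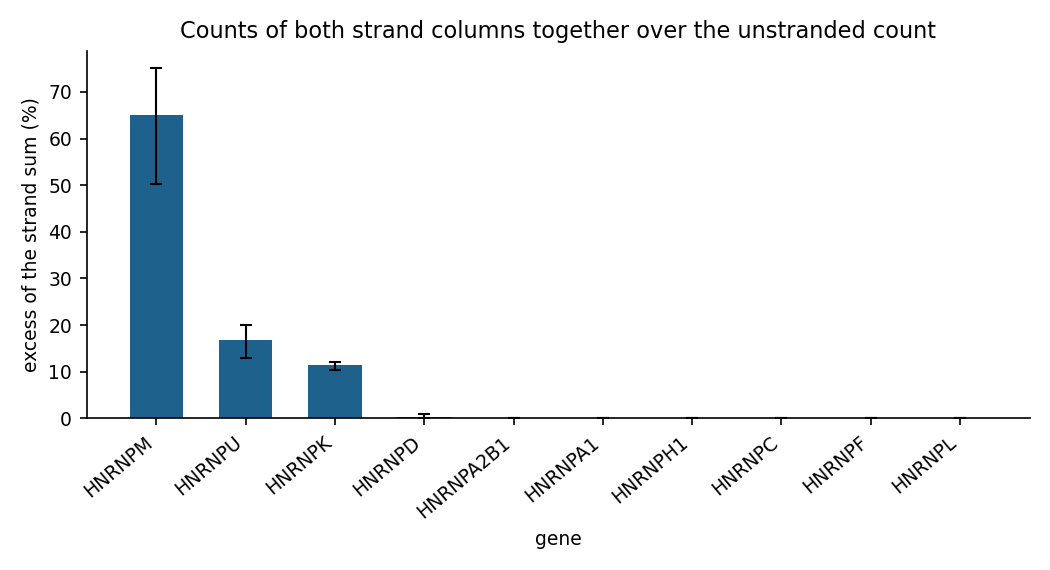
Excess in percent of the sum of both strand columns over the unstranded count for the 10 hnRNP genes, over all 12 libraries together (bar), with the range over single libraries (line). HNRNPM stands at 65.0%, HNRNPU at 16.7% and HNRNPK at 11.4%, and the other 7 at 0.261% or less.

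Pairs that fitted several places were not counted, which bears on HNRNPA1 most, since 75 annotated loci carry the name of a processed or other pseudogene copy of it. Those loci had 3296 counts together, 1.39% of the count of HNRNPA1, and HNRNPA1P48 had 1368 of them. The named pseudogene loci of HNRNPM had 1.30% of its count and those of each other gene at most 0.524%. How many HNRNPA1 pairs were lost to copies cannot be read from these counts, so its level is uncertain.

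The first comparison asked what the miR-211 plasmid did against the control plasmid. None of the 10 genes passed the test (edgeR's quasi-likelihood test, adjusted p 0.996 to 0.997). Of the 12685 genes tested 0.00788% did, a single gene, MIR211 itself. With the replicate number as a block in that test, the adjusted p of the 10 genes ran from 0.728 to 0.989. Again none of them passed, against 1 of all genes tested. The log2 fold changes of the 10 genes ran from -0.085 (HNRNPH1) to 0.072 (HNRNPM), with 3 above 0 and 7 below. Their median was -0.019, against 0.0079 over all genes tested. The widest 95% intervals reached -0.32 for HNRNPL and 0.39 for HNRNPM, so a change beyond those bounds was outside the interval of every one of the 10 genes. In bulk RNA, a change in some cells and a smaller change in all of them cannot be told apart.

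The A/B-type proteins, HNRNPA1 and HNRNPA2B1, carry 2 of the 3 seed matches shown above. HNRNPA1 had 2802, 3030 and 2852 CPM in the miR-211 plasmid libraries, against 3066, 2997 and 2826 CPM in the control plasmid libraries. HNRNPA2B1 had 2919, 3210 and 3018 CPM with the miR-211 plasmid, against 3364, 3280 and 3009 CPM with the control plasmid. The groups overlapped for both genes. The log2 fold change was -0.0050 (95% interval -0.16 to 0.15) for HNRNPA1 and -0.049 (-0.21 to 0.11) for HNRNPA2B1. HNRNPU, the third gene with a match, had 496, 451 and 476 CPM with the miR-211 plasmid, against 519, 481 and 484 CPM with the control plasmid. Its log2 fold change was -0.033 (-0.18 to 0.11).

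The G-run binders did not move together in value. HNRNPH1 had 838, 814 and 847 CPM with the miR-211 plasmid, against 939, 869 and 897 CPM with the control plasmid. It was the only member whose groups did not overlap, which 9.7% of all genes tested also showed, in either direction. The log2 fold change was -0.085 (SE 0.066, edgeR adjusted p = 0.996, or 0.728 with the replicate number as a block). HNRNPF had 611, 570 and 560 CPM with the miR-211 plasmid, against 578, 591 and 559 CPM with the control plasmid, and the groups overlapped. The count of HNRNPH1 over that of HNRNPF was 1.44 ± 0.0711 with the miR-211 plasmid and 1.57 ± 0.0847 with the control plasmid (SD, n = 3 each), with overlapping ranges of 1.37 to 1.51 and 1.47 to 1.63.

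HNRNPK, the host of MIR7-1, had 1947, 1992 and 1892 CPM with the miR-211 plasmid, against 2133, 2102 and 1971 CPM with the control plasmid. HNRNPC had 1819, 1491 and 1507 CPM with the miR-211 plasmid, against 1663, 1620 and 1543 CPM with the control plasmid, so replicate 1 held both the highest value and the widest distance to the rest of its group. HNRNPD, the AU-rich element binder, had 144, 149 and 148 CPM with the miR-211 plasmid, against 154, 149 and 151 CPM with the control plasmid. None of these differences passed the test, and leaving out replicate 1 of the miR-211 plasmid turned the log2 fold change of HNRNPC, 0.025 over all libraries, to -0.083.

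HNRNPM was the least even of the 10 genes. It had 49.6, 76.5 and 86.1 CPM with the miR-211 plasmid, so that this group spanned the whole range of the control plasmid group, at 71.5, 66.9 and 69.1 CPM. Its log2 fold change of 0.072 was -0.085 without replicate 3 of the miR-211 plasmid and 0.25 without replicate 1. HNRNPL had 21.1, 26.0 and 20.4 CPM with the miR-211 plasmid, against 22.0, 21.0 and 27.3 CPM with the control plasmid.

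Libraries with the same replicate number resembled each other in this comparison, so values were also compared within numbers. HNRNPH1, HNRNPK and HNRNPU were lower with the miR-211 plasmid in each of the 3 same-numbered pairs, which is 3 of 10 genes, against 16% of all genes tested. For HNRNPH1 the groups did not overlap in CPM, so the pairs add little. No member was higher in all 3 pairs. Within pairs, HNRNPK differed by -0.10, -0.067 and -0.050 on the log2 scale, and HNRNPU by -0.039, -0.083 and -0.015. Counts from the 3 deciles of coding genes with the least GC took a lower share with the miR-211 plasmid in the same 3 pairs. That share was 29.7%, 29.6% and 27.9%, against 31.4%, 30.9% and 29.7% with the control plasmid. These deciles hold HNRNPH1, HNRNPK and HNRNPU. They also hold HNRNPA2B1, HNRNPC and HNRNPD, each of which was lower in only 2 of the 3 pairs. After subtracting the median fold change of genes of like GC content, the log2 fold change was -0.054 for HNRNPK, -0.020 for HNRNPH1 and 0.032 for HNRNPU, against -0.062, -0.085 and -0.033 without it. The median of the 10 genes was then 0.00033, and 6 of 10 were above 0. That adjustment was added after the values had been seen, and the part of GC content in these differences was otherwise not tested.

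The second comparison asked what U1 siRNA did against scrambled oligo. None of the 10 genes passed the test (edgeR adjusted p = 1 for each), nor did any of the 12413 genes tested (0%), although 196 genes had an unadjusted p under 0.05. No member was among those 196. The log2 fold changes of the members ran from -0.16 (HNRNPL) to 0.12 (HNRNPM), with 3 above 0 and 7 below, and a median of -0.034, against 0.015 over all genes tested.

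HNRNPL had 22.1, 22.4 and 21.1 CPM with U1 siRNA, against 22.5, 23.4 and 26.9 CPM with scrambled oligo. It was the only member whose groups did not overlap, against 6.45% of all genes tested. The nearest libraries of the groups had 22.4 and 22.5 CPM. It was also the only one lower in all 3 same-numbered pairs, against 9.42% of all genes. With groups that do not overlap, any pairing is lower in CPM. Pairs were compared after a further scaling of library sizes, which can turn a small difference, so this adds little. Same-numbered libraries were not taken as paired in this comparison. The log2 fold change of HNRNPL was -0.16 (SE 0.12, 95% interval -0.42 to 0.097). HNRNPM had 77.6, 62.7 and 60.8 CPM with U1 siRNA, against 59.6, 62.3 and 62.3 CPM with scrambled oligo, and its log2 fold change of 0.12 rested on replicate 1 of U1 siRNA, without which it was -0.010. HNRNPD had 129, 125 and 121 CPM with U1 siRNA, against 142, 141 and 122 CPM with scrambled oligo, and its log2 fold change of -0.12 had an interval from -0.30 to 0.070.

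For the 4 genes with the most counts, the groups overlapped widely. HNRNPA1 had 2999, 2785 and 2896 CPM with U1 siRNA, against 3090, 2850 and 2548 CPM with scrambled oligo. HNRNPA2B1 had 2886, 3124 and 2963 CPM with U1 siRNA, against 3144, 3087 and 2843 CPM with scrambled oligo. HNRNPK had 1882, 1840 and 1952 CPM with U1 siRNA, against 1970, 1898 and 1943 CPM with scrambled oligo. HNRNPA1 can interfere with U1 at 5′ splice sites, and its interval ran from -0.17 to 0.22 on the log2 scale. HNRNPC had 1487, 1470 and 1602 CPM with U1 siRNA, against 1588, 1481 and 1512 CPM with scrambled oligo.

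The others were likewise within the spread of their groups. HNRNPH1 had 796, 772 and 832 CPM with U1 siRNA, against 810, 825 and 859 CPM with scrambled oligo. HNRNPF had 533, 524 and 575 CPM with U1 siRNA, against 513, 540 and 558 CPM with scrambled oligo. HNRNPU had 424, 368 and 412 CPM with U1 siRNA, against 438, 418 and 389 CPM with scrambled oligo. The value of 368 CPM was from replicate 2, the library with 44.5% of pairs outside exons. Without that library the log2 fold change of HNRNPU was 0.028, against -0.053 with it.

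Both effects were then compared in a fit of all 12 libraries. The miR-211 plasmid effect minus the U1 siRNA effect ran from -0.067 (HNRNPM) to 0.12 (HNRNPL) on the log2 scale, and no member passed the test of that difference (edgeR adjusted p = 0.999 for each), against 0.0074% of 13520 genes. The intervals of these differences reached -0.51 for HNRNPM and 0.52 for HNRNPL, and were narrowest for HNRNPH1, at -0.22 to 0.15. The miss of the threshold does not show that both agents acted alike.

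**Figure D4:**
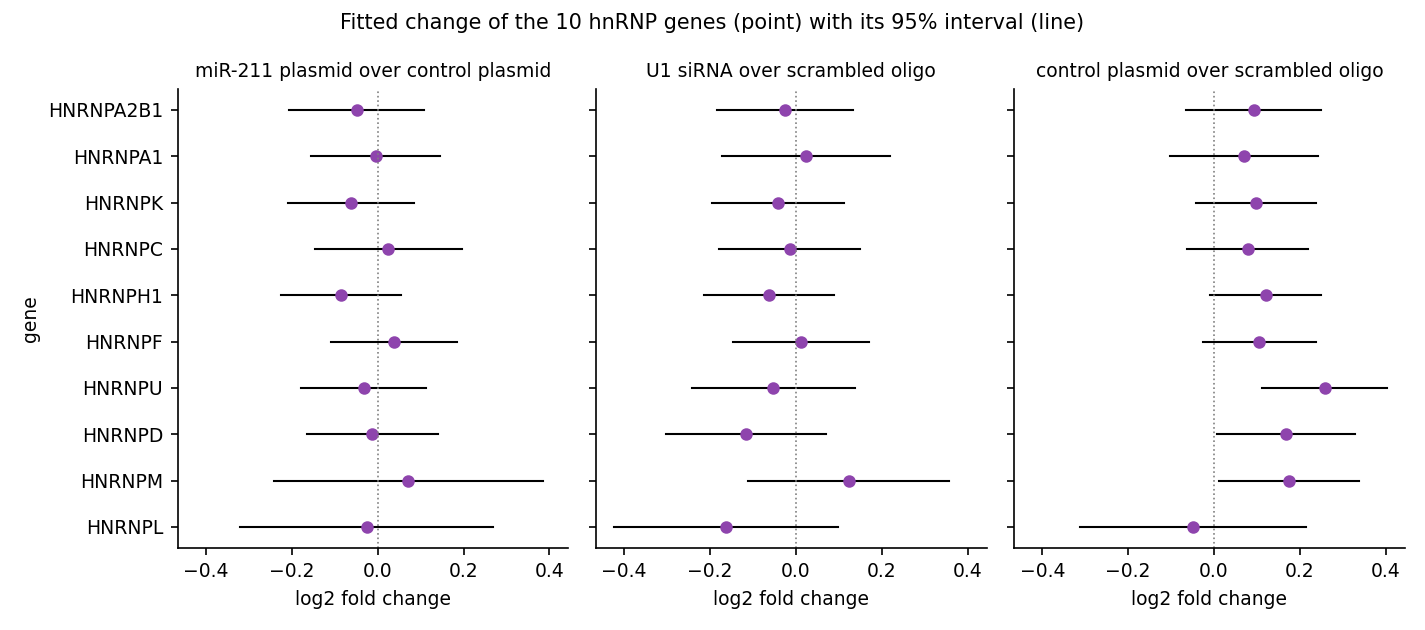
Fitted log2 fold change (point) and its 95% interval (line) of the 10 hnRNP genes, from left to right for the miR-211 plasmid over the control plasmid, U1 siRNA over scrambled oligo, and the control plasmid over scrambled oligo. Every interval in the first 2 panels crosses 0. In the third, 9 of 10 points lie above 0, and the intervals of HNRNPU, HNRNPD and HNRNPM do not reach it.

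Another comparison set the control plasmid against scrambled oligo. It gives the background of the agent and of anything else that differed between the 2 transfections, which cannot be told apart. In value 9 of 10 genes were higher with the control plasmid, with a median log2 fold change of 0.10, against -0.0039 over all genes tested. The groups of 6 of 10 genes did not overlap, against 13.9% of genes. No member passed the test, and neither did any of the 12650 genes tested (0%), while 986 genes, 7.79%, had an unadjusted p under 0.05 in edgeR, 3 members among them.

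HNRNPU differed most, by 0.26 (SE 0.068, 95% interval 0.11 to 0.40), with an unadjusted p of 0.00185 and an adjusted p of 0.438 in edgeR. Its lowest control plasmid library, at 481 CPM, lay above its highest scrambled oligo library, at 438 CPM. DESeq2 gave HNRNPU an adjusted p of 0.0243, the only call of a member in this comparison among the tools and settings run. Its own filtering left an adjusted p for 633 genes, of which it called 38, or 6%. HNRNPM differed by 0.17 (SE 0.076) and HNRNPD by 0.17 (SE 0.075), with edgeR adjusted p of 0.622 and 0.63. HNRNPL was the exception in sign, at -0.049.

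Since the treated groups used the same agents, the 6 plasmid libraries were set against the 6 oligo libraries, a comparison chosen after the values had been seen and sharing 6 libraries with the one above. Each of the 10 genes had a higher value in the plasmid libraries, and their median log2 difference was 0.11, against -0.021 over all genes tested. HNRNPU had 451 to 519 CPM in the plasmid libraries, with its median between 481 and 484, against 368 to 438 CPM in the oligo libraries, with its median between 412 and 418. HNRNPD had 144 to 154 CPM in the plasmid libraries, with its median at 149, against 121 to 142 CPM in the oligo libraries, with its median between 125 and 129. For these 2 of 10 genes every plasmid library lay above every oligo library, which 1.52% of the 13520 genes tested showed in either direction and 0.577% in this direction.

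The log2 difference was 0.27 for HNRNPU (SE 0.056, edgeR adjusted p = 0.0586) and 0.23 for HNRNPD (SE 0.053, adjusted p = 0.109), so neither passed in the fit with 4 groups, where 0.185% of genes did. HNRNPU passed in an edgeR fit with the libraries as 2 groups (adjusted p = 0.0246), where 0.525% of 12377 genes did. It also passed in one with the replicate number as a block (adjusted p = 0.0347), where 0.274% of 13520 genes did. Same-numbered libraries were not taken as paired between the oligo groups or between the controls, so that block lacks a ground there. The call thus depended on the model. With the strand columns summed, so that pairs over COX20 entered too, the difference of HNRNPU was 0.22 with an adjusted p of 0.122. Leaving out 1 library at a time gave differences of 0.23 to 0.30 for HNRNPU and 0.19 to 0.25 for HNRNPD, with no call. HNRNPH1 and HNRNPF had unadjusted p of 0.0183 and 0.02 and differences of 0.12 and 0.13, and did not pass after adjustment. An unadjusted p under 0.05 was found for 11.8% of genes in this comparison.

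**Figure D5:**
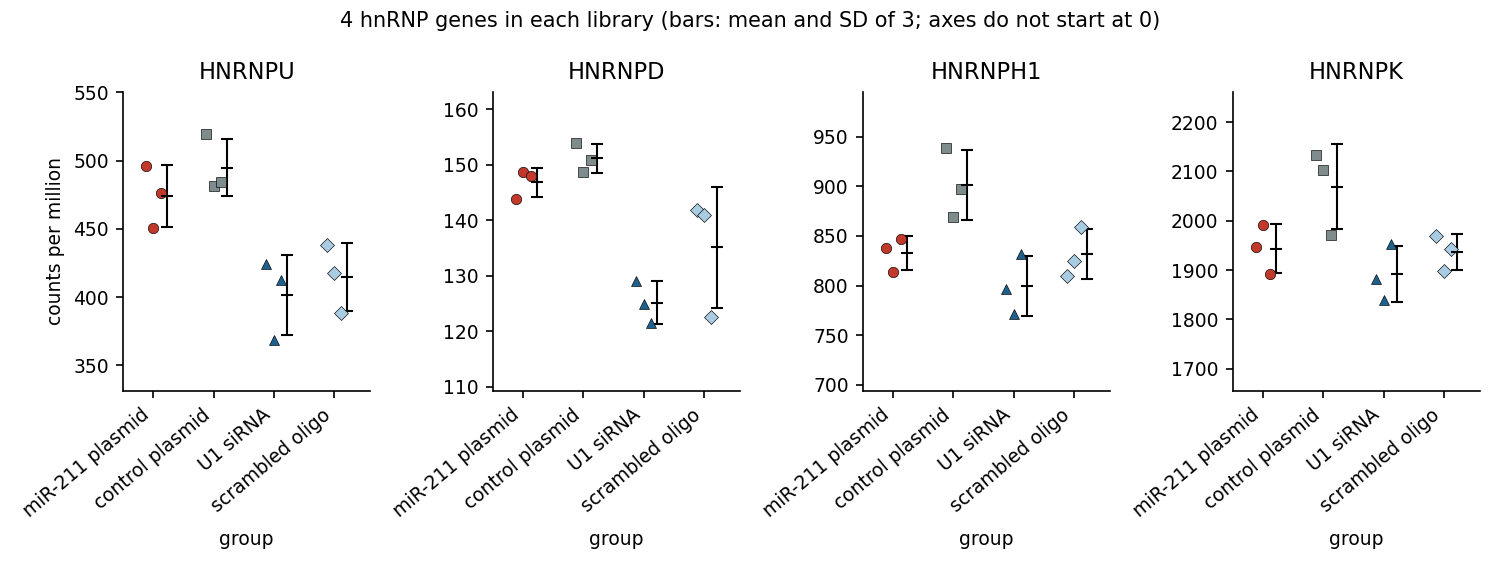
CPM of HNRNPU, HNRNPD, HNRNPH1 and HNRNPK in each of the 12 libraries, by group, with the mean and SD of 3 libraries beside them; the axes do not start at 0. For HNRNPU and HNRNPD the 6 plasmid libraries lie above the 6 oligo libraries, while for HNRNPH1 and HNRNPK the 2 kinds overlap.

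The wider family was measured for comparison with a list of 21 other hnRNP and related genes. None of the 21 passed the test in any of these comparisons. With the miR-211 plasmid 8 were higher in value and 13 lower, with a median log2 fold change of -0.041. Among the highest by signed p were PCBP2 (0.14) and TARDBP (0.071), and the lowest were HNRNPUL1 (-0.17), HNRNPA0 (-0.15) and HNRNPA3 (-0.11). With U1 siRNA 7 were higher and 14 lower, with a median of -0.019. Among the highest by signed p were HNRNPUL2 (0.20) and RALY (0.13), and the lowest were PCBP2 (-0.16), HNRNPH2 (-0.073) and HNRNPLL (-0.13).

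With the control plasmid over scrambled oligo, 17 of the 21 were higher in value and 4 lower, with a median of 0.053. HNRNPAB (0.22), PTBP3 (0.20) and HNRNPR (0.15) were highest by signed p, and HNRNPLL (-0.36), PTBP2 (-0.20) and PCBP2 (-0.10) lowest. HNRNPLL, the close relative of HNRNPL, had 10.2 to 10.9 CPM with the control plasmid, against 11.7 to 16.1 CPM with scrambled oligo. In the plasmid libraries over the oligo libraries, 16 were higher and 5 lower, with a median of 0.064, so the wider family stood between the 10 genes, at 0.11, and all genes tested, at -0.021.

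Proteins found with hnRNP particles were taken as a list of 9, of which 8 were tested. MATR3 was matched to a gene identifier that did not pass the low-count filter, and another gene that overlaps it carries the same symbol. None of the 8 passed in any comparison. In the plasmid libraries over the oligo libraries all 8 values were above 0, and their median was 0.18 on the log2 scale. SAFB, which like HNRNPU binds scaffold attachment regions, was highest at 0.36 (edgeR adjusted p = 0.305), and NCL, the nucleolar protein nucleolin, had the lowest adjusted p, 0.0856, at 0.34.

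The pattern shared by the 10 genes over the 12 libraries was small. The mean of their centred log2 profiles ran from -0.096 in U1 siRNA replicate 2 to 0.11 in control plasmid replicate 1, and it was above 0 in 5 of 6 plasmid libraries and below 0 in all 6 oligo libraries. HNRNPK lay closest to it among the members, with a root mean square difference of 0.039 log2 units, and HNRNPM and HNRNPL farthest, at 0.18 and 0.14. Each member is part of that mean and other genes are not, so distances of members and of other genes are not on a like footing. Among 5493 other protein-coding genes with a mean of at least 20 CPM, the closest were ZNF638 (0.031), LDHA (0.035), COPS3 (0.036), VDAC2 (0.037) and GMPS (0.037), and the median was 0.13. How the 12 libraries were handled together is not known, and likeness in so flat a profile favours genes that vary little.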

How the data were processed

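RNA from 12 HEK293T libraries was analysed from the deposited read counts per gene, which carry no normalization by the authors. The submitters' processing notes name STAR 2.7.2a, GRCh37 and hg19; all 58735 gene identifiers match GENCODE 29, made on GRCh38, so the build aligned to is not settled and coordinates here are from GENCODE 29 or RefSeq. Gene names came from that annotation. The unstranded column was used, and the 4 summary lines were left out of library sizes and tests. The test was edgeR 4.0.16 under R 4.3.3 (TMM, filterByExpr, quasi-likelihood test, Benjamini-Hochberg adjusted p under 0.05 over all genes tested) on the 6 libraries of a comparison, or on all 12 for the difference of effects. Values shown are CPM of raw totals; fold changes and differences within pairs use TMM scaling. DESeq2 1.42.0, limma 3.58.1, other scaling, columns and filters were alternatives, and the code was tested on simulated data. The genes named among other hnRNP genes are the 3 highest and 3 lowest by signed p; a gene that this rule picked is not reported here. The members and lists were chosen with earlier results of these data known. Same-numbered libraries were taken as paired only where every correlation of their deviations from group means was over 0.1: this held for the miR-211 and control plasmids (0.239 to 0.305), from the data and not the labels, and not for U1 siRNA and scrambled oligo (-0.048 to 0.14) or the controls (0.027 to 0.17). No replicate pair matched within sampling noise.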

Additional observations from a re-analysis of the deposited data

Results flagged for a closer look

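Over the 6 plasmid and the 6 oligo libraries of each of the 10 genes, the highest or lowest library was compared with its nearest neighbour relative to the range of the 6. In the oligo libraries HNRNPM was highest in U1 siRNA replicate 1, at 77.6 CPM, and the other 5 libraries lay between 59.6 and 62.7 CPM. This gap was past the 95% critical value, and chance alone marks about 1 in 20 of such sets, of which there were 20.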

How the results depend on the processing

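No member's call changed under RLE scaling, limma-voom, a fit of all 12 libraries, either strand column, no low-count filter, the share of pairs outside exons in the model or 1 library left out. HNRNPU alone gained calls, in the 3 fits given above. The replicate block ended or made no other call of a member. HNRNPL and HNRNPM had the fewest counts. Strand, pseudogene copies and GC content bear on levels, and splicing is not measured. The strand sum, the GC adjustment and the plasmid over oligo comparison were chosen after seeing the data. Where a value below changed, the cause was not tested.

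Numbers of genes past the threshold over the whole table moved as follows. With the miR-211 plasmid over the control plasmid the count of 1 was 2 with no low-count filter, in strand column 3, in strand column 4 and with both summed. With U1 siRNA over scrambled oligo the count of 0 was 7 with no filter. With the control plasmid over scrambled oligo the count of 0 was 51 with no filter, 4 and 6 in strand columns 3 and 4, 6 with both summed, 30 with the replicate block, 38 in DESeq2, 3 in limma-voom and 0 to 21 with 1 library left out (21 without scrambled oligo replicate 3, 1 without control plasmid replicate 1 or 3). For the difference of both effects the count of 1 was 3 with no filter, 0 in strand column 3, in strand column 4, with both summed and with the replicate block, and 0 to 1 with 1 library left out (1 without control plasmid replicate 2, U1 siRNA replicate 2 or scrambled oligo replicate 3). For the plasmid over the oligo libraries the count of 25 was 55 with no filter, 70 in strand column 4, 65 as 2 groups, 48 with the share of pairs outside exons and 7 to 21 with 1 library left out (16 or fewer without miR-211 plasmid replicate 1 or 3 or any control plasmid or scrambled oligo library).

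Signs turned only for values that passed no test. With the miR-211 plasmid over the control plasmid these were HNRNPA1 (0.00388) and HNRNPD (0.050) in strand column 3, and HNRNPA1 (0.023), HNRNPC (-0.027) and HNRNPL (0.071) with the share of pairs outside exons. With U1 siRNA over scrambled oligo these were HNRNPA1 (-0.044) and HNRNPF (-0.055) with no filter, HNRNPLL (0.020) in strand column 3, HNRNPC (0.00371) and RALY (-0.021) in strand column 4, and HNRNPC (0.014) with the share of pairs outside exons. With the control plasmid over scrambled oligo these were HNRNPL (0.025) in strand column 3, and HNRNPA1 (-0.013) and HNRNPL (0.0059) with the share of pairs outside exons. For the difference of both effects these were HNRNPA1 (0.029), HNRNPA2B1 (0.043), HNRNPH1 (0.034), HNRNPK (0.038) and HNRNPM (0.00527) with no filter, HNRNPA2B1 (0.0096), HNRNPH1 (0.051) and HNRNPM (0.11) in strand column 3, HNRNPD (-0.061), HNRNPM (0.020) and HNRNPU (-0.044) in strand column 4, and HNRNPM (0.061) with both summed. In the plasmid over the oligo libraries it was HNRNPL (-0.091) in strand column 4.

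With 1 library left out, signs turned within these ranges. With the miR-211 plasmid over the control plasmid they were HNRNPA1 (-0.052 to 0.016), HNRNPC (-0.083 to 0.070), HNRNPF (-0.0094 to 0.070), HNRNPL (-0.16 to 0.099), HNRNPM (-0.085 to 0.25) and TARDBP (-0.013 to 0.12). With U1 siRNA over scrambled oligo they were HNRNPA1 (-0.049 to 0.097), HNRNPA2B1 (-0.071 to 0.0063), HNRNPC (-0.075 to 0.032), HNRNPF (-0.050 to 0.062), HNRNPK (-0.085 to 0.0014), HNRNPM (-0.010 to 0.19), HNRNPU (-0.10 to 0.028), HNRNPUL2 (-0.17 to 0.45) and RALY (-0.15 to 0.38). With the control plasmid over scrambled oligo they were HNRNPA1 (-0.0081 to 0.16) and HNRNPL (-0.17 to 0.032). For the difference of both effects they were HNRNPA1 (-0.12 to 0.034), HNRNPA2B1 (-0.080 to 0.013), HNRNPC (-0.057 to 0.094), HNRNPF (-0.030 to 0.083), HNRNPH1 (-0.078 to 0.021), HNRNPK (-0.069 to 0.018), HNRNPL (-0.0054 to 0.26), HNRNPM (-0.22 to 0.14) and HNRNPU (-0.067 to 0.058). In the plasmid over the oligo libraries it was HNRNPL (-0.040 to 0.068). Of all log2 fold changes under an alternative, 1133 kept their sign and side of the threshold, 78 changed sign and 3 gained a call.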
